A study of Mus musculus with 6 samples.

Results

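The genes of the eukaryotic translation initiation factors (eIF) and elongation factors (eEF) were followed through 4 peak lists of H3K4me3, the trimethylation of lysine 4 on histone H3. They were taken as the protein-coding genes with symbols that begin with Eif1 to Eif6, Eef1 or Eef2, without the Eif2ak kinases, which gave 67 of 21887 genes on the main chromosomes of mm10. Of these, 52 have Eif symbols and 15 have Eef symbols, and the family includes inhibitors and modifying enzymes of the factors. Eef1akmt4 and its read-through gene Eef1akmt4-ece2 start at the same base, so the 67 genes have 66 separate promoter windows. A promoter was taken to reach 1 kb before and after an annotated start and was called marked in a library when a peak of that library overlapped it. For the 16 members without a listed start, the window was placed at whichever end of the gene had peaks in the larger number of libraries, so it is not known to lie at the start.

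All groups were Lgr5-positive progenitor cells of the cochlea, from C57BL/6 Lgr5-EGFP-creERT2 mice of either sex at postnatal day 0 to 3, cultured and then sorted by the green fluorescent reporter in the Lgr5 locus. The culture medium of both groups was DMEM/F12 supplemented by B27, N2, IGF-1, heparin sulfate, bFGF and EGF. One group received neomycin, an antibiotic toxic to hair cells, during 12 h and the other did not, and each had 2 H3K4me3 libraries made with the same antibody according to the labels. The untreated peak lists are named for H3K4me2. The labels were followed, and if the names are right the groups differ in mark as well as in treatment. The comparison asks where the mark lies in progenitor cells with and without neomycin. Whether the 2 libraries of a group derive from separate cultures, and from how many animals, is not stated, so the spread between them may be technical.

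Translation begins when eIF2 brings the initiator tRNA to the small ribosomal subunit, with eIF1, eIF1A and eIF3 bound, and the eIF4 factors recruit the capped mRNA. eIF5 and eIF5B complete the joining of the large subunit, after which eEF1 delivers aminoacyl-tRNAs and eEF2 moves the ribosome along. Control acts at a few of these steps: phosphorylated eIF2 blocks its exchange factor eIF2B, the eIF4E-binding proteins sequester the cap-binding protein eIF4E, and eEF2 kinase inactivates eEF2. H3K4me3 sits on the first nucleosomes after the start of active genes, mostly at promoters rich in CG dinucleotides.

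The lists held 10520 to 15938 peaks and no read totals, so the depth is unknown. The shortest peak differed between libraries, at 48 bp in neomycin replicate 1, 110 bp in neomycin replicate 2, and 187 and 234 bp in the untreated ones. Pairs of values below are given in the order of the replicate numbers. The median peak was 70.0 and 142 bp with neomycin against 310.5 and 340.0 bp without, and lengths in bp can therefore not be compared directly between the groups. Of 12 supporting cell markers, 9 were marked in all 4 libraries, Lgr5 among them, and none of 6 blood and macrophage markers was marked in any. Of 10 hair cell markers, the neomycin libraries marked 2 and 1 and the untreated ones 6 and 1, Atoh1 in the untreated libraries alone. Of 8 mesenchyme markers, the neomycin libraries marked 0 and 0 and the untreated ones 3 and 4, with Coch, Prrx2 and Twist1 in the untreated libraries alone, and the part of these cells in the differences described here was not tested.

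The promoters below, 120 bases before to 30 bases from the annotated start as RefSeq gives them on GRCm38.p6, the assembly of mm10, are shown because they span the patterns found. The first 3 were marked in all 4 libraries, Eif4b and Eif3f only in the untreated libraries, Eif3m and Eif2s3x only in the neomycin libraries, and the last 3 in none. Capitals mark CG dinucleotides.
Eef1a1 (chr9:78481695-78481844, minus strand): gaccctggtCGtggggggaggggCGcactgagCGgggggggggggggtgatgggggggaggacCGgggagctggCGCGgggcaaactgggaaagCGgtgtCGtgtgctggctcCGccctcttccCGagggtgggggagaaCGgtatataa
Eef2 (chr10:81176511-81176660, plus strand): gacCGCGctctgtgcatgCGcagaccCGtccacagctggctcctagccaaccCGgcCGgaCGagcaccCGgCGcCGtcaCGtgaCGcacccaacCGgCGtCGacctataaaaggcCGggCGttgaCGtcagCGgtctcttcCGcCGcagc
Eif1b (chr9:120492486-120492635, plus strand): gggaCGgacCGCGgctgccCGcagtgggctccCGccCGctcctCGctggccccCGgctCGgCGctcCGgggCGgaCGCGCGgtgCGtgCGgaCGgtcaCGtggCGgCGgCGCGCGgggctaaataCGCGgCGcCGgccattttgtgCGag
Eif4b (chr15:102073653-102073802, plus strand): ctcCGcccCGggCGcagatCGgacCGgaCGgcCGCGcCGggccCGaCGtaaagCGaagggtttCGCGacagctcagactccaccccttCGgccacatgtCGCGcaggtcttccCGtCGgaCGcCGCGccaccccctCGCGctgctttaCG
Eif3f (chr7:108934295-108934444, plus strand): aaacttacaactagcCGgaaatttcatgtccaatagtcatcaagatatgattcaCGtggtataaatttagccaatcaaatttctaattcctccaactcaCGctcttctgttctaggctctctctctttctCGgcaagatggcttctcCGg
Eif3m (chr2:105016998-105017147, minus strand): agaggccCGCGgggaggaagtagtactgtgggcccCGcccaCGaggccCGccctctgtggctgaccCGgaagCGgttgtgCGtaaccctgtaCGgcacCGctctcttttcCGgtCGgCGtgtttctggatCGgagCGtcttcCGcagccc
Eif2s3x (chrX:94212622-94212771, minus strand): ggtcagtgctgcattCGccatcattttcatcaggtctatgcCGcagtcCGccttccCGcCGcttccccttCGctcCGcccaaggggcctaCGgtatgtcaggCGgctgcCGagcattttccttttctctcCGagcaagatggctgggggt
Eif1ax (chrX:159372058-159372207, plus strand): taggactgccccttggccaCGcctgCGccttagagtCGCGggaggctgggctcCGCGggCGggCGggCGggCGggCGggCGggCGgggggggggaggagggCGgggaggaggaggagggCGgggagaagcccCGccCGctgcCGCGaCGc
Eif2b1 (chr5:124579102-124579251, minus strand): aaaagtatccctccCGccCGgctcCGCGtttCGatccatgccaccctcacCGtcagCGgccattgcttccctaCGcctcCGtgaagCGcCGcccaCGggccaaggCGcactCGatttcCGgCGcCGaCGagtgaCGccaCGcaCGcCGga
Eef1a2 (chr2:181156986-181157135, minus strand): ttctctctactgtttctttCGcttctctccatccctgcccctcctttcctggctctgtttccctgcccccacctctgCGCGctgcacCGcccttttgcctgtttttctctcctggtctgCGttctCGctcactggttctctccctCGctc
In these 150 bases, Eif1b had 29 CG dinucleotides and Eif2b1 22, although the first was marked in every library and the second in none. Eif3f, with 5, had fewer CG than Eef1a2, with 7. Of the stretches printed, Eif1b's alone was touched by peaks, over 57 and 139 bases in the untreated libraries.

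Promoters of translation factors were marked more often than promoters at large in each library. Neomycin replicate 1 had a peak at 40 of 67 members (59.7%, against 34.8% of all genes) and neomycin replicate 2 at 38 (56.7%, against 33.6%). Untreated replicate 1 had one at 53 members (79.1%, against 47.0%) and untreated replicate 2 at 45 (67.2%, against 36.3%). Both untreated libraries thus lay above both neomycin libraries, with means of 49.0 and 39.0 members; an exact two-sided permutation test over the libraries gave p = 0.33, the smallest that 4 libraries allow. The 4 libraries stood in the same order for all genes. In all, 22 members (32.8%) were marked in the 4 libraries, against 16.6% of all genes, and 8 (11.9%) in none, against 45.0%. The count in all 4 was 14 with lists cut to equal length, against 11.5% of all genes, and 3 when at least 200 bp of peaks inside the window were required, against 2.36%.

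Other families that every cell uses had shares of the same order. Of 88 genes with Rpl or Rps symbols, the cytosolic ribosomal proteins and their close relatives, the neomycin libraries marked 61.4% and 48.9% and the untreated ones 76.1% and 56.8%. Of 51 proteasome genes, the neomycin libraries marked 68.6% and 68.6% and the untreated ones 84.3% and 56.9%. A missing peak at such genes is read here as not called, not as absence of the mark.

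**Figure D1:**
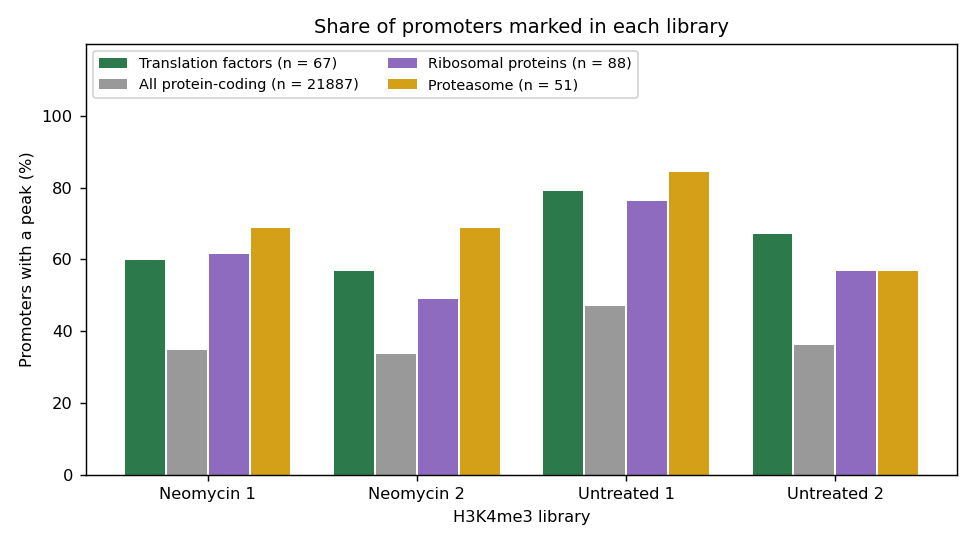
Share of promoters with a peak (y axis, percent) in each of the 4 H3K4me3 libraries (x axis) for 67 translation factor genes, all 21887 protein-coding genes, 88 ribosomal protein genes and 51 proteasome genes. Translation factors stand between 56.7% and 79.1%, above all genes in each library.

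The genes that recognise the start codon differed from one another. Eif1 and Eif1b encode closely related forms of eIF1, which guards the fidelity of start codon choice. Eif1b had peaks summing to 150 and 110 bp with neomycin and 801 and 735 bp without, whereas Eif1 had a single peak of 278 bp, in untreated replicate 1. Of the genes for eIF1A, Eif1a was marked in every library except neomycin replicate 2, at the lower end of the gene, which lies near an end of Tmed7. Eif1ax, its X-linked counterpart, had no peak, and the nearest one in any library lay 42.5 kb from its start.

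The 3 subunits of eIF2 parted into 2 patterns. Eif2s1, which encodes the alpha subunit that the stress kinases phosphorylate, had 280 and 110 bp of peaks with neomycin and 403 and 609 bp without, in a window shared with Atp6v1d. Eif2s2, the beta subunit, had 280 and 302 bp with neomycin and 360 and 500 bp without. Eif2s3x, the X-linked gamma subunit, was marked with neomycin alone, by 80 bp in replicate 1 and 131 bp in replicate 2, and its untreated libraries had no peak within 21.7 and 22.1 kb of the start. Its Y-linked copy Eif2s3y had no peak in any library. Eif2a and Eif2d encode proteins that can deliver tRNA outside the eIF2 route; Eif2a was marked in 3 libraries and Eif2d in neomycin replicate 1 alone.

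Of the 5 subunits of eIF2B, the catalytic subunit gene Eif2b5 and Eif2b4 were marked in all 4 libraries. Eif2b5 had 225 and 110 bp of peaks with neomycin and 268 and 235 bp without. Eif2b2 and Eif2b3 were marked without neomycin alone, and Eif2b1 in no library. The start of Eif2b1 lies within 1 kb of that of Gtf2h3, and the nearest peaks were 19.7 to 19.8 kb away in all 4 libraries. The 5 genes of one complex thus showed 3 patterns.

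eIF3, the large scaffold on the small subunit, had 14 genes in the set; the neomycin libraries marked 7 and 8 of them and the untreated libraries 9 and 10. Eif3d, Eif3g and Eif3h were marked in all 4 libraries. Eif3b, Eif3c, Eif3i and Eif3j1 lacked only the peak of neomycin replicate 1, and Eif3a, the largest subunit, lacked only that of neomycin replicate 2. Eif3f was marked in the untreated cells alone and Eif3m in the neomycin cells alone, while Eif3l and Eif3j2 had no peak. Eif3e was marked in 1 library of each group, with 48 bp in neomycin replicate 1 and 271 bp in untreated replicate 2.

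The helicase genes were marked in most libraries. Eif4a1, the major RNA helicase of the cap-binding complex, had 88 and 115 bp with neomycin and 474 and 393 bp without. Eif4a2, Eif4a3 and Eif4h were also marked in all 4, and Eif4a3l1, a relative of Eif4a3, in none. Eif4b, which stimulates the helicase, had peaks only without neomycin. Each of the 3 scaffold genes was marked in both untreated libraries and 1 neomycin library: Eif4g1 in neomycin replicate 2, and Eif4g2 and Eif4g3 in neomycin replicate 1. Eif4g1 had 112 bp in neomycin replicate 2 and 678 and 936 bp in the untreated libraries, while in neomycin replicate 1 the closest peak began 1.01 kb from the start, just outside the window.

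Cap-binding genes held 2 of the members marked without neomycin alone, Eif4e and Eif4e1b. Eif4e2 and Eif4e3, which encode related cap-binding proteins, were marked in all 4 libraries. Of the eIF4E-binding proteins, which restrain cap binding until the TOR kinase phosphorylates them, Eif4ebp1 was marked in replicate 1 of each group, with 193 bp with neomycin and 857 bp without. Eif4ebp2 was marked in the untreated cells alone and Eif4ebp3 in no library.

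Among the late initiation factors, Eif5 and Eif6 were marked in all 4 libraries and Eif5b in all but neomycin replicate 1. Eif5, the GTPase activator of eIF2, had 70 and 110 bp of peaks with neomycin and 1237 and 912 bp without. Eif6, which keeps free large subunits from joining, had 53 and 110 bp against 721 and 510 bp, at its upper end, as no start was listed. Eif5a, the factor that carries the amino acid hypusine, had 162 bp in neomycin replicate 2, none in neomycin replicate 1, and 702 and 736 bp in the untreated libraries. Its paralogue Eif5a2 had 48 bp in neomycin replicate 1, none in neomycin replicate 2, and 408 and 404 bp without neomycin.

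**Figure D2:**
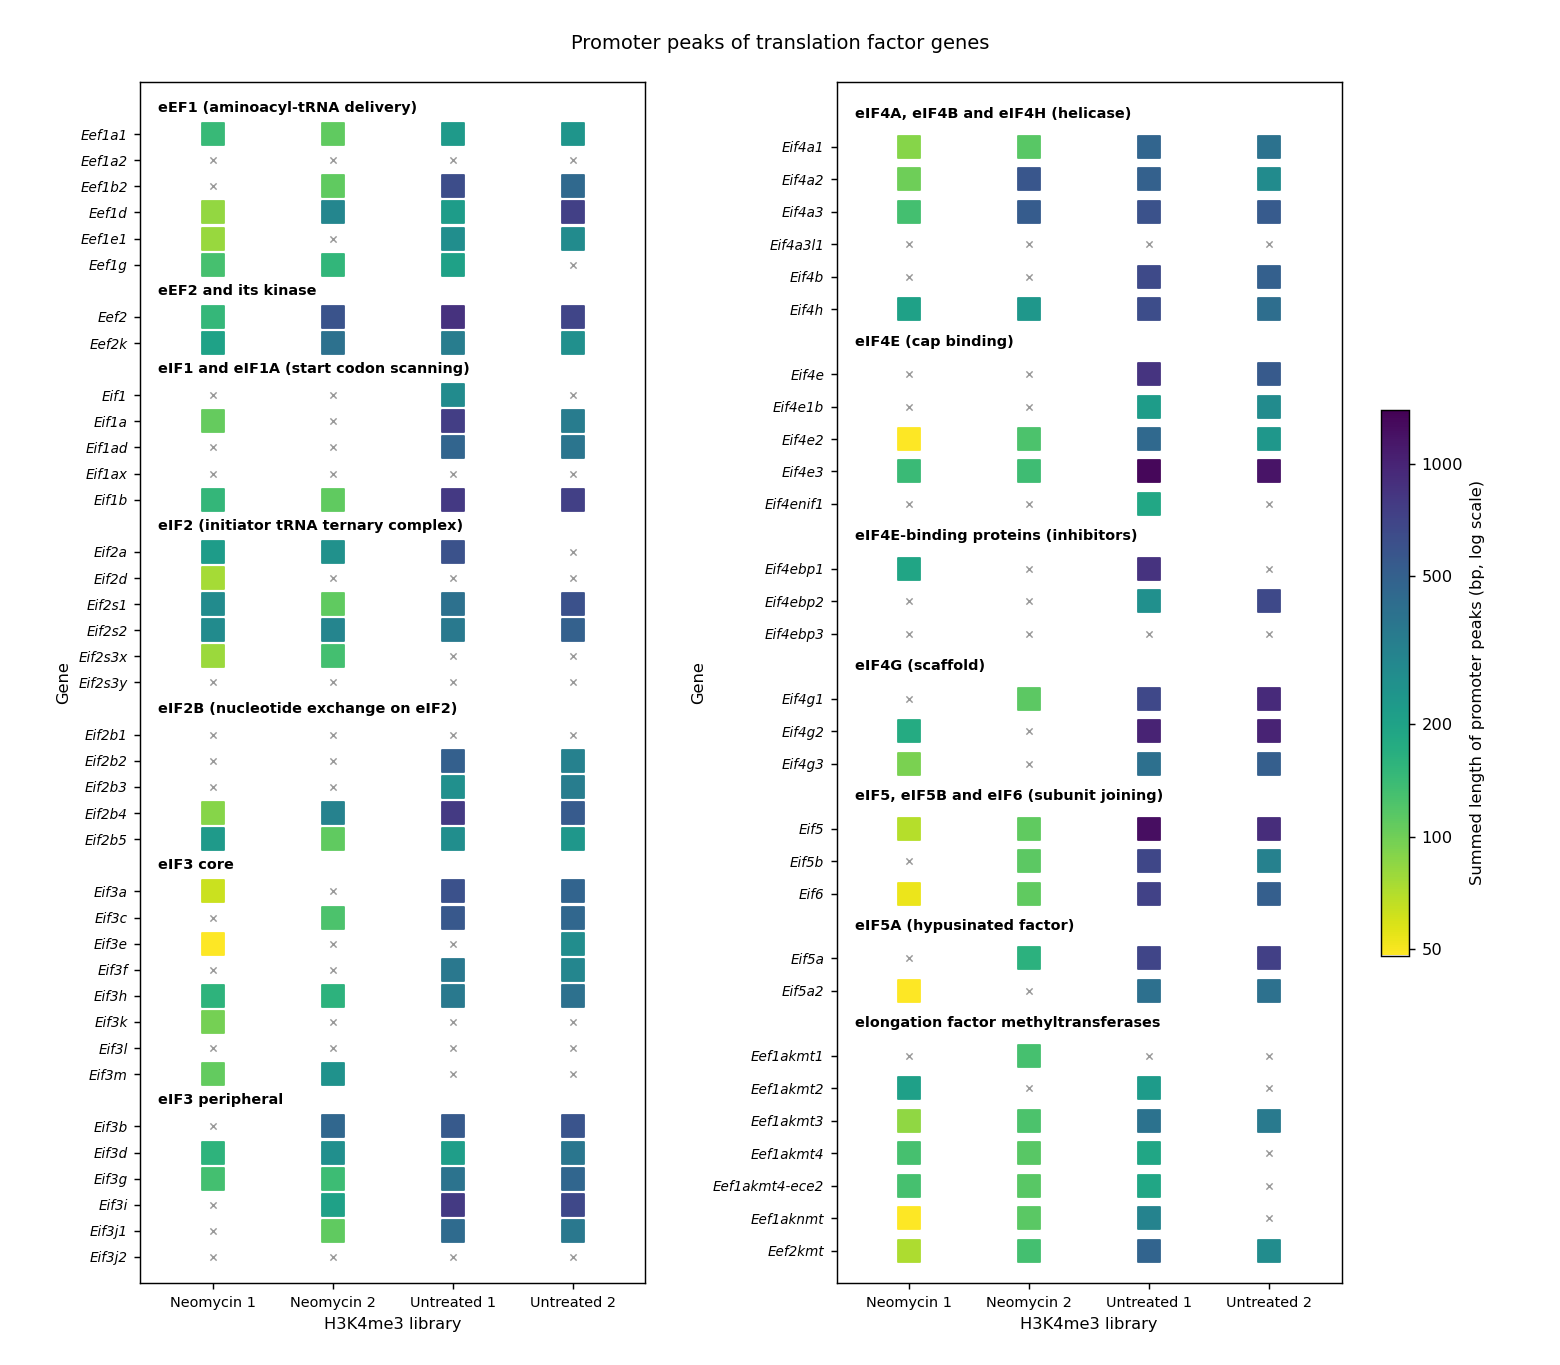
Summed length of the peaks at the promoter (colour, bp on a log scale) for each of the 67 genes (y axis, by factor group) in each H3K4me3 library (x axis), with a cross where no peak was called. Eif4e, Eif4b and Eif4ebp2 carry squares only in the untreated columns, and Eif2s3x and Eif3m only in the neomycin columns.

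Of the 15 Eef genes, 13 had a peak in at least 1 library of each group; the exceptions were Eef1a2, with none, and Eef1akmt1, with a peak of 129 bp in neomycin replicate 2 alone. Eef1a1, which encodes the abundant carrier of aminoacyl-tRNA, had 144 and 110 bp with neomycin and 225 and 240 bp without, while Eef1a2, the form of neurons and muscle, had no peak at its start in any library and 1 peak inside the gene in replicate 1 of each group. Eef2 had 148 and 594 bp with neomycin and 870 and 702 bp without. Eef2k, the kinase that inhibits it, had 200 and 403 bp with neomycin and 340 and 260 bp without. Of the exchange subunits of eEF1, Eef1d was marked in all 4 libraries, Eef1b2 in all but neomycin replicate 1 and Eef1g in all but untreated replicate 2. The 7 genes of elongation factor methyltransferases were marked at 6 genes in each neomycin library and in untreated replicate 1, but at 2 in untreated replicate 2. Eef1akmt4 and Eef1akmt4-ece2 count here as 2 genes with 1 window, which also holds the start of Alg3. The neomycin peaks entered that window by only 11 and 40 bases.

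The members whose marks were limited to 1 group, in both of its libraries, all had Eif symbols, as do 52 of the 67 members. There were 8 of the untreated-only kind (11.9%, against 4.66% of all genes) and 2 of the neomycin-only kind (2.99%, against 1.41%). Because members are marked more often than other genes, both shares were also taken among marked promoters. Among 44 members that both untreated lists marked, 18.2% lacked any neomycin peak, against 14.0% of all such promoters, and among 29 that both neomycin lists marked, 6.90% lacked any untreated peak, against 6.04%. These shares lay near those of promoters at large. Of 47 ribosomal protein and 29 proteasome genes that both untreated lists marked, 6.38% and 3.45% lacked any neomycin peak. Of the 30 and 28 that both neomycin lists marked, 10.0% and 3.57% lacked any untreated peak. The differences between families were not tested. Presence was not tested per gene, since 4 libraries allow no p below 0.33. The limit to Eif symbols did not hold in every setting. With lists of equal length, Eef1e1 became untreated only and Eef1akmt4 and Eef1akmt4-ece2 became neomycin only. With a window of 500 bp, Eef1d became untreated only.

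Eif4e, the cap-binding protein on which TOR signalling converges, spans 138526191 to 138559696 of chromosome 3. In it, 2 peaks summed to 840 bp in untreated replicate 1 and 1 peak took up 546 bp in untreated replicate 2, and the nearest neomycin peaks lay 37.4 and 382 kb from a start. Eif4b, on chromosome 15 from 102073773 to 102097173, had 656 and 502 bp in the untreated libraries and no neomycin peak within 45.0 and 130 kb. Eif4ebp2, on chromosome 10 from 61428491 to 61452790, had 262 and 662 bp, with neomycin peaks 23.2 and 23.3 kb away. All 3 belong to the cap-dependent step, Eif4ebp2 as an inhibitor, and at each the neomycin lists were empty across the whole gene. Several other genes of that step, Eif4a1, Eif4a2, Eif4h, Eif4e2 and Eif4e3, were marked in all 4 libraries, and each Eif4g gene in a neomycin library.

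The other 5 came from several factor groups. Eif3f, on chromosome 7 from 108934415 to 108941942, had 362 and 297 bp in the untreated libraries, with neomycin peaks 16.2 and 235 kb away. Eif2b2, on chromosome 12 from 85219481 to 85226628, had 501 and 322 bp, with neomycin peaks 68.7 and 69.4 kb away. Eif2b3, on chromosome 4 from 117019399 to 117086852, had 260 and 341 bp at its lower end, with neomycin peaks 25.3 and 23.5 kb away. None of these 3 windows holds a start of another protein-coding gene. Eif1ad, on chromosome 19 from 5366813 to 5371518, had 473 and 378 bp in a window shared with Banf1, and neomycin peaks 21.8 and 21.7 kb away.

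Eif4e1b, known from the oocyte, differed from the rest of this set. Its untreated peaks of 220 and 279 bp lay 0.987 and 0.954 kb from its upper end, in a window that holds the start of Tspan17, and the neomycin libraries had peaks 1.34 and 1.46 kb away. With a window of 2.5 kb it was no longer untreated only, which left 7 members. Eif4b was no longer untreated only with lists of equal length, nor was Eif4e when every gene was given a window at a gene end. The untreated-only count, 8, was 30 when at least 200 bp of peaks inside the window were required, against 17.9% of all genes, a length that the median marked promoter reached in neither neomycin library (107 and 190.0 bp). Without neomycin replicate 1 the count was 14, against 11.1% of all genes, and without neomycin replicate 2 it was 16, against 10.3%. When only peaks of -log10 q of at least 10 were kept, 11 members were untreated only, against 6.66% of all genes, but Eif4ebp2 was the single one of the 8 among them.

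The 2 members marked with neomycin alone carried short peaks. Eif3m, on chromosome 2 from 104999656 to 105017027, encodes a subunit of the eIF3 core and had 2 peaks summing to 108 bp in neomycin replicate 1 and 1 peak of 251 bp in neomycin replicate 2. No untreated peak came closer than 167.4 and 167.3 kb. Eif2s3x, on chromosome X from 94188709 to 94212651, had its 131 bp peak of neomycin replicate 2 at percentile 0.641 of that list by the caller's q, among the weakest peaks deposited. No member was neomycin only with the same threshold on q, but of all genes only 1 (0.0046%) was. That threshold therefore says nothing particular about these 2 members. With lists of equal length Eif3m was still neomycin only and Eif2s3x was not. The neomycin-only count was 7 without untreated replicate 1, against 5.92% of all genes, and 4 without neomycin replicate 2, against 3.29%.

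**Figure D3:**
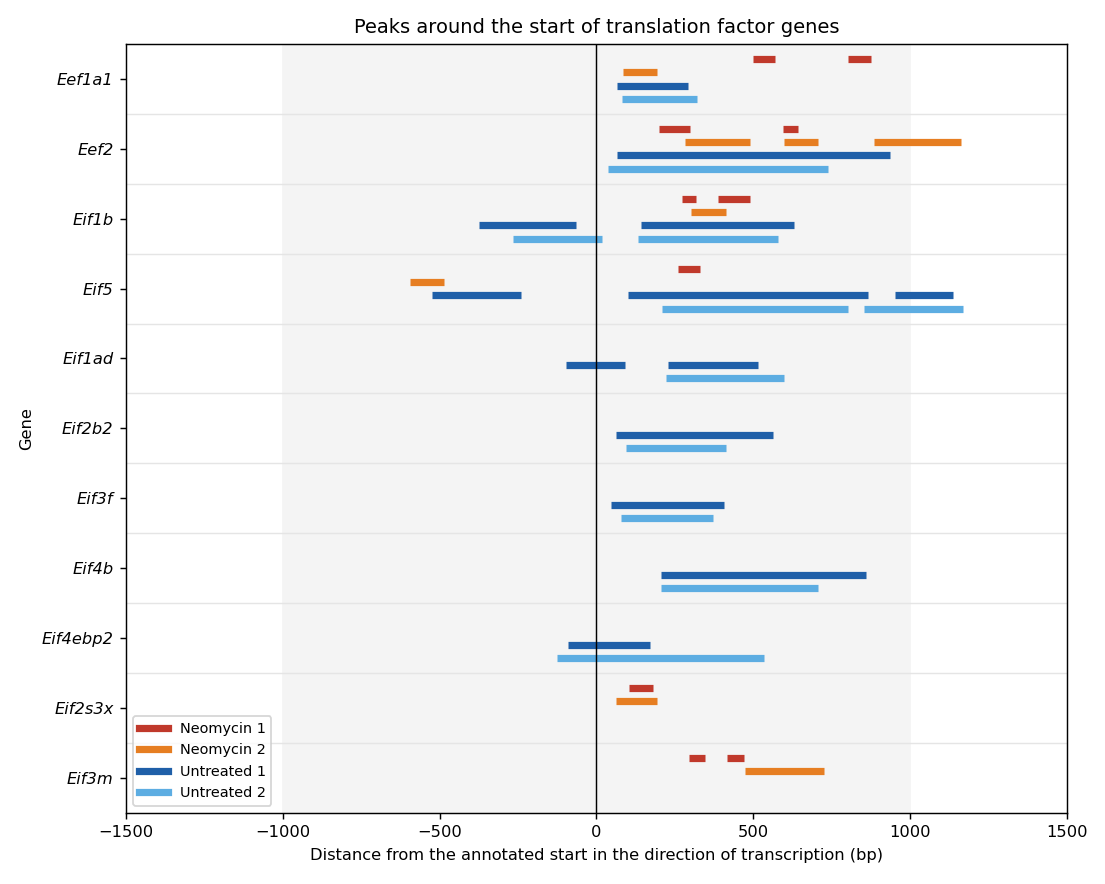
Peaks of the 4 libraries (coloured bars) at 11 members, placed by distance from the annotated start in the direction of transcription (x axis, bp), with the window of 1 kb either side shaded. Eef1a1, Eef2, Eif1b and Eif5 carry peaks of all libraries, the next 5 genes only untreated peaks and the last 2 only neomycin peaks.

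The peaks lay downstream of the start. At members with 1 listed start, the summit of the strongest peak lay a median of 280 and 302 bp after the start with neomycin, and 214 and 276 bp after it without. For all genes the medians were 219, 170, 203 and 225 bp. The summit was downstream at 20 of 27 and 20 of 27 members with neomycin and at 31 of 35 and 26 of 29 without. The start base itself was covered by a peak at 1 of 27 and 0 of 27 members with neomycin and at 4 of 35 and 3 of 29 without, against 4.34% and 4.83% of all such genes with neomycin and 18.6% and 22.3% without. At Eif1b each untreated library had 1 peak before the start, reaching 18 bp past it in replicate 2, and 1 after it, and the neomycin libraries had peaks only after it.

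Members' peaks were of ordinary strength for their lists. The strongest peak of each marked member stood at a median percentile of 53.0, 57.9, 67.7 and 61.5 of its own list by the caller's q, in neomycin replicates 1 and 2, then in the untreated ones. Median summed lengths were 118.5 and 131.5 bp with neomycin and 473 and 450.0 bp without, beside 107 and 190.0 bp and 439 and 412.5 bp for all marked promoters. In neomycin replicate 2, 8 of 38 marked members (21.1%) stood at the shortest length of the list, 110 bp, beside 11.6% of all marked promoters. These lengths cannot go lower, which limits what a comparison of lengths can show.

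By the mean summed length in bp over the 4 libraries, a rank in which the longer untreated peaks weigh most, the first 5 members were Eif4e3, Eif5, Eef2, Eif4g2 and Eif4a3. Eif4e3 had 142 and 136 bp with neomycin and 1315 and 1166 bp without, at a gene end shared with an end of Gpr27. Eif4g2, which supports initiation without eIF4E, had 178 bp in neomycin replicate 1, none in neomycin replicate 2, and 1014 and 1011 bp without neomycin. Eif4a3, the helicase of the exon junction complex, had 132 and 535 bp with neomycin and 602 and 539 bp without. Less the median of its library, the log2 length of Eif4a3 was 0.079 and 1.18 with neomycin and 0.079 and 0.20 without, and that of Eef2 was 0.24 and 1.33 with neomycin and 0.61 and 0.58 without. On that scale neomycin replicate 2 stood highest at both genes, and the groups overlapped. Eif5, second by the mean, was short with neomycin, where Eif2s2 had longer marks.

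The 22 members with a peak in every library could be compared for length. Their log2 summed length, less the median of its library, entered a limma fit over all 3638 such promoters. No member passed an adjusted p of 0.05, and of all promoters 0.0% passed as longer with neomycin and 0.0% as shorter, while 353 (9.7%) had an unadjusted p under that value, 4 members among them. The median difference of the 22 members was 0.14 on the log2 scale, neomycin minus untreated, beside -0.0058 for all promoters, and 12 members were above 0 and 10 below. The median was negative without neomycin replicate 1 (-0.086), neomycin replicate 2 (-0.080) or untreated replicate 1 (-0.11), and 0.19 without untreated replicate 2, so its sign rested on the choice of libraries. Both neomycin libraries lay above both untreated libraries at 3 members, against 19.3% of all promoters, and below them at 7, against 21.0%. Without centring, 1139 promoters passed, all shorter with neomycin, as the median of all promoters then shifted to -1.59. Among them were 6 of the 22 members, Eif1b, Eif4a1, Eif4e2, Eif4e3, Eif5 and Eif6.

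Eif5 had the largest negative difference, -2.01 (SE 0.60, limma adjusted p 0.237, n = 2 libraries a group). Eif4e3 followed with -1.57 (SE 0.61, limma adjusted p 0.364) and Eif6 with -1.40 (SE 0.60, limma adjusted p 0.447). At each of these the 2 neomycin values lay below both untreated values. Eif4e3 and Eif6 have no listed start, so their windows lay at a gene end. In neomycin replicate 2 Eif5 and Eif6 stood at the shortest length of the list, as did Eif1b, Eif2s1, Eef1a1 and Eif2b5, described next. By the longest single peak Eif5 was at -1.18. Eif5 was at -2.14 without neomycin replicate 1 and -1.88 without neomycin replicate 2. In such fits the lone library is assumed to vary like the other group. Eif4e3 was at -2.06 without neomycin replicate 1. Eif2b5 was at 1.89 without neomycin replicate 2, the library in which it stood at that shortest length.

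Eef2k had the largest positive difference, 1.52 (SE 0.60, limma adjusted p 0.373), with both neomycin values above both untreated values. Eif3d, a subunit of eIF3 that can bind the cap of some mRNAs, had 1.13 (SE 0.62, limma adjusted p 0.556). Eif2s2 had 1.04, Eif4a2 0.95 and Eif2b5 0.91, with limma adjusted p of 0.618 to 0.710. Eef1a1, at 0.70, and Eef2, at 0.19, had limma adjusted p of 0.760 and 0.961. Eif1b had -0.99, Eif4a1 -0.51 and Eif2s1 0.09, none of which passed on the centred scale. Without neomycin replicate 1 or 2, Eef1a1 was at 0.051 or 1.36, Eif4a2 at 1.73 or 0.16, and Eif1b at -1.67 or -0.31. Eif2s2 was at 0.64 without neomycin replicate 1 and 0.66 without untreated replicate 1, and Eif3d at 0.59 without the latter. All positive differences named here were negative without centring.

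**Figure D4:**
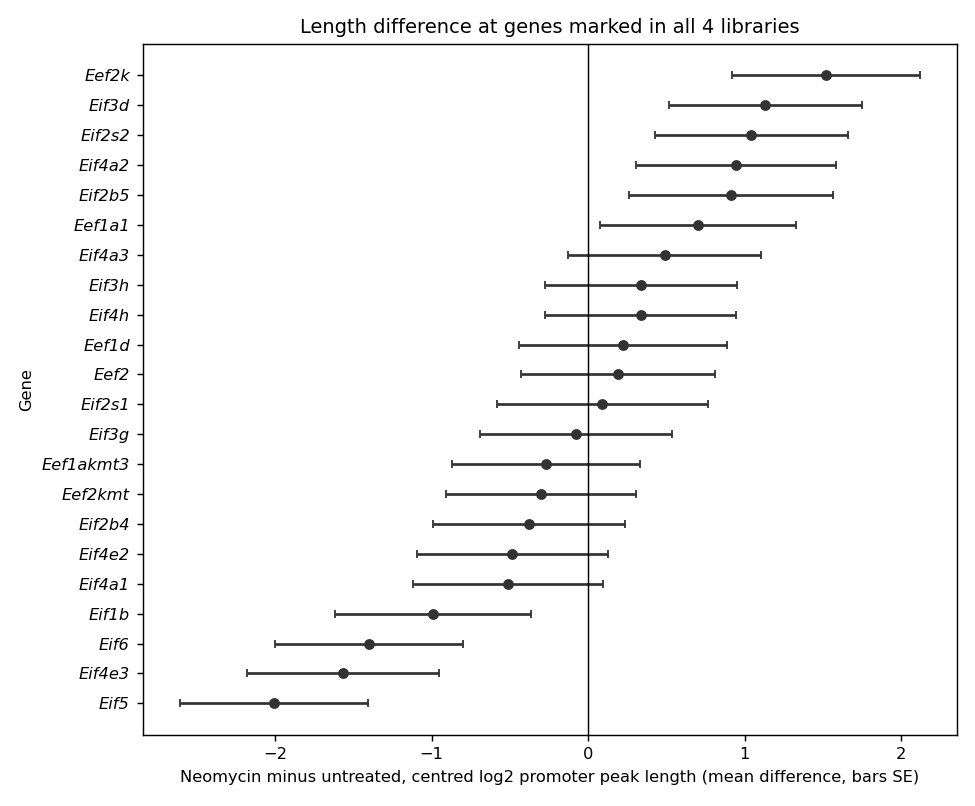
Difference in centred log2 promoter peak length, neomycin minus untreated (x axis), at the 22 members marked in all 4 libraries (y axis); points are means over 2 libraries a group and bars are standard errors from limma. Eif5, at -2.01, and Eef2k, at 1.52, lie at the ends, and none passed the test.

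Translation factor promoters were rich in CG dinucleotides. The 51 members with a listed start had a median of 24.0 CG in the 300 bases from 250 before to 50 from the start, beside 15.0 for 17492 genes; where a gene had several starts the one with most CG was used. Members in all 4 libraries had a median of 24.0, those in 1 to 3 libraries 25 and those in none 17, beside 27.0, 22.0 and 3.0 for all genes. Eif2b5 was marked in all 4 libraries with 9 CG, and Eif1ax and Eif2b1 in none with 31 each. Promoters of all genes with 20 to 29 CG were marked in at least 1 library in 90.7% of cases, and 18 of 19 such members were. With 30 or more, 96.8% of all genes and 15 of 17 members were marked, and with 10 to 19, 74.1% and 11 of 12. Members thus stood above all genes in the class of 10 to 19 and below them in the class of 30 or more, without a test. In all 4 libraries, 2 of 12, 9 of 19 and 5 of 17 members of these 3 classes were marked, beside 17.1%, 28.2% and 40.4% of all genes.

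**Figure D5:**
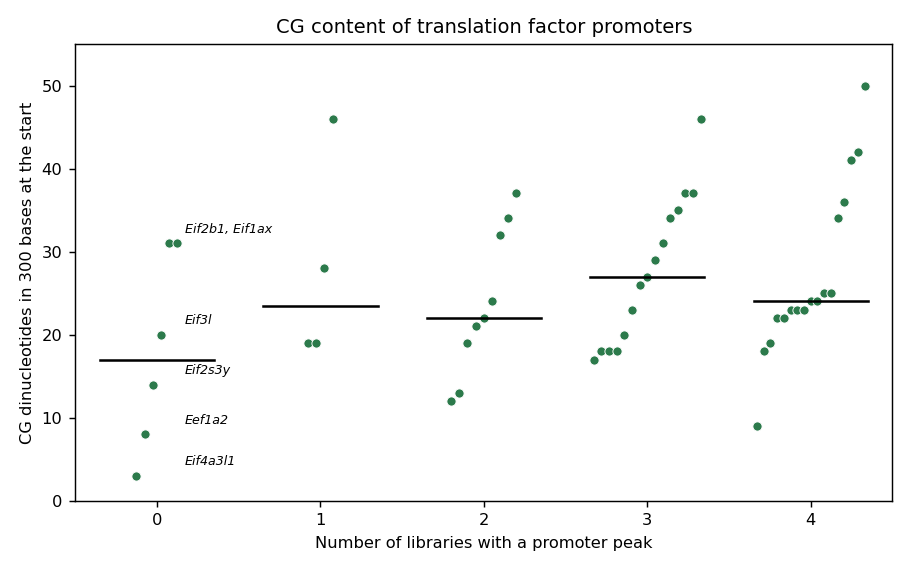
Number of CG dinucleotides in 300 bases at the start (y axis) of the 51 members with a listed start, by the number of libraries with a promoter peak (x axis); points are genes and bars medians. Genes without a peak range from Eif4a3l1, with 3, to Eif1ax and Eif2b1, with 31.

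Motifs were searched in the same promoters. TATAAA, on either strand of the 250 bases before the start, was found at 5 members (Eef2, Eif2s1, Eif2s3y, Eif3b and Eif3f), or 9.80%, beside 12.0% of all genes. Many translation factor mRNAs begin with a C followed by a run of pyrimidines, the terminal oligopyrimidine tract through which TOR controls them. A C at the listed start followed by 4 bases that are each C or T was found at 2 of 51 members (3.92%), Eif3f and Eif2s3x, beside 2.15% of all genes. The match needs a start listed to the base, so that no match says only that these letters are not at that position.

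Genes that act on the factors were counted in lists of their own. These lists and those of the next paragraph hold 5 to 12 genes each and were not tested. Beside them, 16.6% of all genes were marked in all 4 libraries, 4.66% without neomycin alone and 1.41% with neomycin alone. Of all promoters marked in both untreated lists, 14.0% lacked any neomycin peak. Of 6 genes of eIF2 kinases and eIF2 phosphatase subunits, 3 (Eif2ak2, Eif2ak3 and Eif2ak4) were marked in all 4 libraries and none in 1 group alone. Of 12 genes of TOR control, 5 were marked in all 4, among them the S6 kinase gene Rps6kb2. Its relative Rps6kb1, also an S6 kinase gene, was marked without neomycin alone, with 687 and 428 bp. Of 9 genes for the diphthamide on eEF2 and the hypusine on eIF5A, none was marked in all 4, and Dph1, Dph5 and Dhps, the enzyme that starts hypusine synthesis, were marked without neomycin alone. Dph1 had a peak elsewhere in the gene in each neomycin library.

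Of 5 release and rescue factor genes, Etf1 and Gspt1, which end translation, were marked in all 4 libraries, and Pelo and Gspt2 without neomycin alone. Among 9 partners of initiation, Paip2, a repressor of the poly(A)-binding protein, was marked with neomycin alone, with 182 and 136 bp at a gene end. Of 9 mitochondrial translation factors, which serve the ribosomes of mitochondria, the neomycin libraries marked 6 and 5 and the untreated ones 7 and 3, 1 of them, Gfm1, in all 4 libraries and none in 1 group alone.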

How the data were processed

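H3K4me3 was measured by chromatin immunoprecipitation and sequencing in 2 neomycin and 2 untreated libraries; 2 input libraries were left out and not analysed here. The submitters' processing notes name mm10 and CASAVA 1.4, Bowtie2, MACS2 and deepTools; roles and parameters: not given in the sources used here. According to the deposited headers a peak carries its length in bp, the pileup signal at the summit, a fold enrichment (a ratio) and the -log10 of its p-value and of its q-value, all from the authors' caller. Peaks were called per library. The untreated lists are named for H3K4me2, but their labels say H3K4me3 with 1 antibody throughout; the labels were followed, and if the names are right the groups differ in mark as well as in treatment.

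Starts came from a RefSeq promoter table for GRCm38.p6, which lists 17492 of 21887 protein-coding genes and 51 of 67 members, 6 of them with several starts. For other genes the window was at the gene end with peaks in more libraries, then more peak bases, then the lower coordinate. The plan did not foresee this mixture. Overlap of at least 1 bp counted. Lengths were fitted with limma 3.58.1 in R 4.3.3 with Benjamini-Hochberg adjustment, without a replicate block; the fit and the assignment of peaks were tested on simulated data. Other steps ran in Python 3.11.15 with scipy 1.17.1, numpy 2.4.6, matplotlib 3.10.9 and pandas 2.3.3. Named genes were 18 key members, members marked in 1 group alone, the 5 largest and 5 smallest length differences, the 5 longest marks and members without a peak; further members were placed by pattern. Members and lists were chosen with earlier results of these data known, and the promoters to print after their values were seen. Alternatives changed the peak threshold, overlap, window, list length, start rule, centring, length measure, block and libraries.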

Additional observations from a re-analysis of the deposited data

How the results depend on the processing

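The count of members marked in all 4 libraries, 22, was 0 with a -log10 q of 10 or more required. It was 3 with at least 200 bp of peaks inside the window and 14 with lists of equal length. For all genes these settings gave 0.0%, 2.36% and 11.5%, beside 16.6%. The count was 22 to 30 when 1 library was left out, against 17.4% to 23.1% of all genes. Leaving out a library loosens the rule, so this count and those below could then only stay or rise. The untreated-only count, 8, was 11 with the stricter q (1 of the 8 among them), 30 with 200 bp covered and 8 to 16 with 1 library left out; for all genes these settings gave 6.66%, 17.9% and 5.74% to 11.1%, beside 4.66%. The neomycin-only count, 2, was 0 with the stricter q, 0 with 200 bp covered and 2 to 7 with 1 library left out. For all genes these settings gave 0.0046%, 0.073% and 2.16% to 5.92%, beside 1.41%. Other windows and start rules kept these counts within 1.5 times, including 2 alternatives chosen after seeing the data, genes with a listed start only and peaks anywhere in the gene. The members counted were not always the same. Eif4b and Eif2s3x left their sets with lists of equal length, and Eif4e left its set with a gene-end window for every gene.

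Promoters called for length numbered 0 with limma, 1 by the longest single peak, 1139 without centring, and 0 to 307 with 1 library left out (115 without neomycin replicate 1 and 307 without neomycin replicate 2). The median difference of the members was -1.45 without centring and -0.11 to 0.19 with 1 library left out, below 0 in 3 of 4 cases. No promoter was marked in all 4 libraries with the stricter q, so lengths were not compared there. Without centring, Eef1a1 was at -0.88, Eef2 at -1.40, Eef2k at -0.067, Eif2b5 at -0.67, Eif2s1 at -1.50, Eif2s2 at -0.54, Eif3d at -0.46 and Eif4a2 at -0.64. Eef2 was at -0.47 by the longest single peak, -0.045 by bases inside the window and -0.35 (without neomycin replicate 2) to 0.73 with 1 library left out. Eif2b5 then ranged from -0.060 to 1.89 and Eif2s1 from -1.04 to 1.22. Eif4a1 was at 0.17 with the 2.5 kb window. The cause was not tested.

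With the replicate number as a block, 0 promoters were called and the median of the members was again 0.14. Deviations of same-numbered libraries had a correlation of -0.019 over 3638 promoters. The shortest length differs between the lists, so this value cannot show whether same-numbered libraries shared a culture or a batch. The unknown depth and the shortest peak of each list limit what presence and length can show.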
